A study of Mus musculus with 16 samples.

Results

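Serpinb2, the gene of plasminogen activator inhibitor type 2 (PAI-2), was followed across 16 RNA sequencing libraries of mouse bone marrow-derived macrophages. It was chosen by name for its place in the plasminogen system, as 1 gene of the 56748 in the deposited count table. Earlier results of these data were known when it was chosen. The macrophages were primary cells of 4 wild type male C57BL6 mice, grown from bone marrow with supernatant of L929 cells, and each mouse gave 1 library to each of 4 groups. Cells of the first group received 10 µM SR9009 for 16 hours and then 100 ng/mL lipopolysaccharide (LPS) for 6 hours, and are called SR9009 and LPS cells. The LPS cells received 100 ng/mL LPS for 6 hours, the SR9009 cells 10 µM SR9009 for 16 hours, and the DMSO cells the vehicle. The labels of the LPS group do not say whether its cells also had DMSO overnight, so a difference in vehicle cannot be told apart from the SR9009 effect in LPS-treated cells. LPS comes from the outer membrane of Gram-negative bacteria and signals through Toll-like receptor 4. SR9009 is a small molecule that activates the REV-ERB nuclear receptors, transcriptional repressors of the circadian clock. The series title concerns the clock and the fibrinolytic activity of innate immune cells.

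Plasminogen is turned into the protease plasmin by urokinase (Plau) and tissue-type plasminogen activator (Plat), and plasmin dissolves fibrin and matrix proteins. Serpins trap their target protease by a large change of shape after it cuts their reactive loop. PAI-2 inhibits both activators but lacks a classical cleaved signal peptide, so much of it stays inside the cell. It is known as a product of activated monocytes and macrophages.

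Library totals ran from 12616442 to 24214863 counts, with 13298 to 18947 genes detected, and the SR9009 library of mouse 1 was lowest in both (the next lowest number of genes was 16419). All 8 macrophage markers checked, among them Adgre1, Csf1r and Cd68, were expressed, and their summed level was 7831 to 8191 CPM (read counts scaled by TMM to a common library size) in SR9009 and LPS cells, 8148 to 9449 CPM in LPS cells, 5667 to 8512 CPM in SR9009 cells and 7023 to 10780 CPM in DMSO cells. Over all libraries Lyz2 was lowest of the 8, at 9.22 to 54.7 CPM. Mertk (17.3 to 173 CPM), Mrc1 (141 to 1609 CPM) and Fcgr1 (44.2 to 2222 CPM) varied widely. Among 8 neutrophil markers Ly6g had no count in any library, and the summed level, mostly S100a8, was 0.707 to 5.81 CPM in SR9009 and LPS cells, 2.16 to 7.24 CPM in LPS cells, 0.256 to 0.906 CPM in SR9009 cells and 0.182 to 0.401 CPM in DMSO cells. The neutrophil sum was higher with LPS, and its part in any Serpinb2 result was not tested. The summed T cell, B cell and dendritic cell markers stayed at or below 1.84 CPM in every library. In bulk RNA, fewer cells expressing Serpinb2 and less Serpinb2 RNA per cell cannot be told apart.

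Serpinb2 (ENSMUSG00000062345) lies on the plus strand of chromosome 1 at 107439153 to 107463208 in GRCm39, the build of the deposited files. The window upstream of its start is shown because the gene differed more between groups than most genes measured. It comes from RefSeq's annotation of another build, GRCm38.p6 (chr1:107511173-107511422, plus strand), and ends at the base before the first annotated start, with a second start 87 bases downstream. Capitals mark, from the left, TGACATCA (a match of the cAMP response element pattern TGACNTCA), TGAATCA (a match of the AP-1 pattern TGANTCA) and the TATA box core TATAAA.
Serpinb2 upstream window: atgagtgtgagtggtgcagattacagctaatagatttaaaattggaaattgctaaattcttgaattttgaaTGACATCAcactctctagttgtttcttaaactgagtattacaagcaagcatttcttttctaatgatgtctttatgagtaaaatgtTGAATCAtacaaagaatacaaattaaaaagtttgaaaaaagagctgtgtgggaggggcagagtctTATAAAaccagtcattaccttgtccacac
The 3 matches begin 179, 94 and 29 bases before the start, none overlaps another, and the GC content of the window is 32.4%. Both strands were searched, and of 32851 RefSeq promoter windows 7.5% held TGACNTCA, 6.7% held TGANTCA and 12.4% held TATAAA. No match was found for a loose NF-kB pattern (45.8% of windows), the REV-ERB and ROR pattern AGGTCA (14.0%) or the E-box CACGTG (6.0%). These are matches of letters in a short window, and no binding was measured.

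Serpinb2 was close to absent without LPS, abundant with LPS, and roughly an order of magnitude lower when SR9009 came before LPS. The raw counts of mice 1 to 4 were 147, 303, 297 and 377 in SR9009 and LPS cells, 1661, 2677, 2908 and 2168 in LPS cells, 0, 7, 0 and 0 in SR9009 cells, and 16, 38, 0 and 0 in DMSO cells. Scaled for library size, Serpinb2 was at 8.64, 17.8, 16.9 and 22.3 CPM in SR9009 and LPS cells, 138, 204, 179 and 155 CPM in LPS cells, 0, 0.256, 0 and 0 CPM in SR9009 cells, and 0.728, 1.46, 0 and 0 CPM in DMSO cells. Every LPS library was above every SR9009 and LPS library, and both groups were above every library without LPS, while the SR9009 and DMSO values overlapped. The means were 16.4 ± 5.71 CPM, 169 ± 28.8 CPM, 0.0639 ± 0.128 CPM and 0.547 ± 0.699 CPM in the SR9009 and LPS, LPS, SR9009 and DMSO cells (SD, n = 4 each). In order of level the groups stood LPS, SR9009 and LPS, DMSO and SR9009, and only the last neighbours in that order did not differ beyond their spread.

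**Figure D1:**
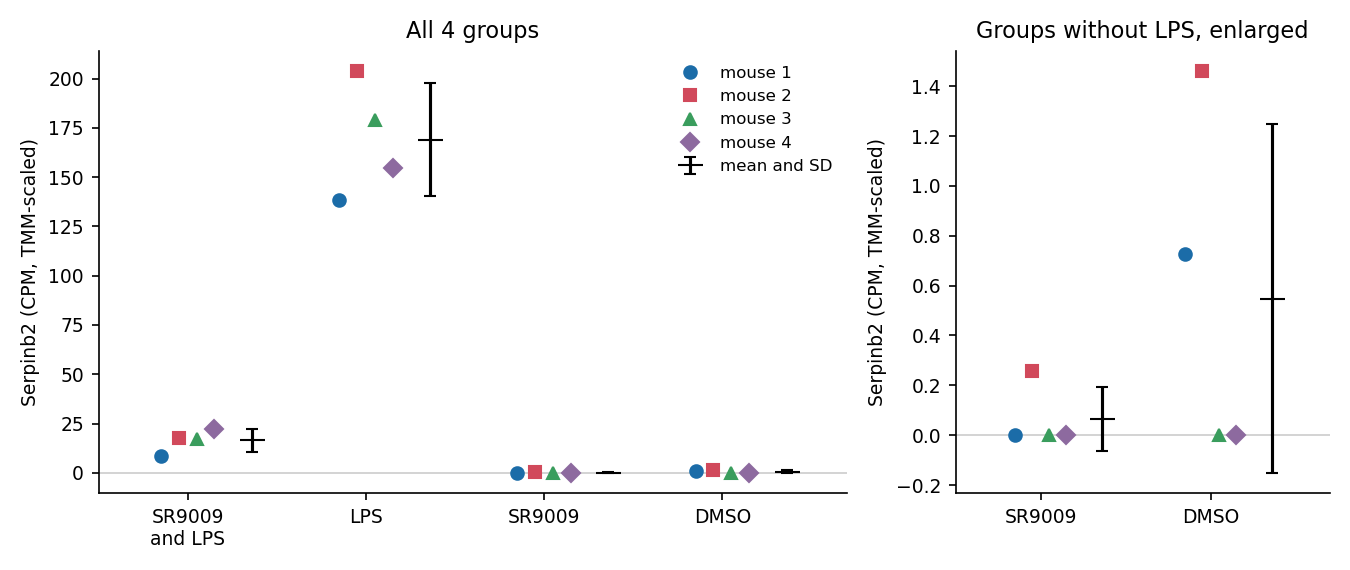
Serpinb2 level (CPM, scaled by TMM) in each of the 16 libraries by group, with the groups without LPS enlarged on the right, with the 4 mice marked by colour and symbol and bars for the mean and SD of 4 libraries. The LPS libraries sit between 138 and 204 CPM, the SR9009 and LPS libraries between 8.64 and 22.3 CPM, and no library without LPS exceeds 1.46 CPM.

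Per gene length, Serpinb2 reached 3.69 to 9.30 FPKM (fragments per kilobase, scaled to library size, as deposited) in SR9009 and LPS cells, 60.6 to 88.1 FPKM in LPS cells, 0 to 0.102 FPKM in SR9009 cells and 0 to 0.605 FPKM in DMSO cells. Among 21970 protein-coding genes ranked by FPKM, it ranked 4217th to 6666th in SR9009 and LPS cells, 762nd to 1059th in LPS cells, 11045th to 13353rd in SR9009 cells and 10019th to 13435th in DMSO cells. A library without a Serpinb2 count ties it with every gene at 0, so that rank reflects only how many genes were detected. This holds for the SR9009 libraries of mice 1, 3 and 4 and the DMSO libraries of mice 3 and 4. With counts, it ranked 11406th in SR9009 cells of mouse 2, and 10585th and 10019th in DMSO cells of mice 1 and 2. The ranks of SR9009 and LPS cells therefore lay between those of the LPS cells and those of cells without LPS.

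LPS cells were set against DMSO cells to measure how strongly the gene answers to LPS. Serpinb2 rose in all 4 mice, to a mean of 169 CPM in LPS cells against 0.547 CPM in DMSO cells, a ratio of means of 309. Within mice the ratio of LPS to DMSO was 190 in mouse 1 and 139.6 in mouse 2. It was at least 1787 in mouse 3 and at least 1568 in mouse 4, whose DMSO libraries held no Serpinb2 count and were set to a floor of 3 counts per library. The fitted log2 fold change was 8.30 (SE 1.01, adjusted p = 1.04e-05, edgeR quasi-likelihood test with Benjamini-Hochberg adjustment over 13438 genes), the 33rd highest of all genes tested. In this comparison 19.4% of genes tested were called higher and 20.4% lower. The fitted size depends on a prior count, since the DMSO cells were near 0, and it ran from 5.91 to 10.43 over 30 alternative settings, all past the threshold. The exact two-sided permutation test of mean CPM gave p = 0.0286, the smallest that 70 splits of 4 against 4 allow (0.0357 adjusted over the 5 comparisons of this kind). That test does not pair the libraries by mouse. The exact sign-flip test over mice, which does, gave 0.125, the smallest that 16 flips allow.

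SR9009 alone left Serpinb2 at or near 0. Cells of mouse 2 given SR9009 held 0.256 CPM against 1.46 CPM with DMSO, which is 17.5% of the DMSO level over 7 and 38 counts. The SR9009 library of mouse 1 held no count where the DMSO library held 16, and both libraries of mice 3 and 4 held none, so this comparison rests on mice 1 and 2. That SR9009 library of mouse 1 had the fewest genes detected (13298). It also held 0 Tnf counts, against 209 in the DMSO library of mouse 1, so its 0 for Serpinb2 is weak evidence of a decrease. The fitted log2 fold change of -2.78 (SE 1.21) did not pass the edgeR test (adjusted p = 0.405), nor did the exact permutation test (p = 0.429). Of all genes tested, 0.313% were called higher and 0.566% lower. None of 29 alternatives was past the threshold, and the log2 fold change ran from -6.43 without the SR9009 library of mouse 2 (edgeR adjusted p = 0.199) and -5.18 without mouse 2 to -1.498 without the DMSO library of mouse 2 (edgeR adjusted p = 0.796). On log2(FPKM + 1) it was -0.23, and without the SR9009 library of mouse 1 it was -2.56 (edgeR adjusted p = 0.565).

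SR9009 given before LPS lowered Serpinb2 in all 4 mice relative to LPS. The level in SR9009 and LPS cells was 6.25%, 8.75%, 9.44% and 14.4% of that in LPS cells of the same mouse, for mice 1 to 4. The means were 16.4 CPM in SR9009 and LPS cells and 169 CPM in LPS cells, so the mean with both agents was 9.72% of the mean with LPS. The coefficient of variation between mice was 34.8% in SR9009 and LPS cells and 17.0% in LPS cells, far less than the difference between the groups. The log2 fold change of -3.36 (SE 0.78) passed the edgeR test with an adjusted p of 0.0396 and was the 10th lowest among 13438 genes. In this comparison 1.06% of genes tested were called higher and 0.737% lower. The exact permutation test gave p = 0.0286, the smallest possible (0.0357 adjusted over 5 comparisons), and the exact sign-flip test over mice gave 0.125, the smallest 16 flips allow.

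The size of that decrease varied little with the setting, from -3.59 to -3.15 over 31 alternatives, while its test varied, and 16 of the 31 were past the threshold. The edgeR fit uses 1 spread for a gene in all 16 libraries, and for Serpinb2, with counts in only some of the libraries without LPS, the biological coefficient of variation was 1.01, against 0.377 as the common value over genes. A fit of the SR9009 and LPS and LPS libraries alone gave -3.36 with an SE of 0.28 (edgeR adjusted p = 0.00296). Adding mouse number to that fit, an alternative chosen after seeing the data, gave -3.41 (SE 0.20, edgeR adjusted p = 0.000718). The call was lost without a filter on low counts (-3.33, adjusted p = 0.0762) and with DESeq2 (-3.39, adjusted p = 0.133). In the fit of all groups it was also lost without mouse 2, 3 or 4 (edgeR adjusted p 0.288, 0.236 and 0.230), without the SR9009 and LPS library of any 1 mouse (0.0820 to 0.137), without the LPS library of any 1 mouse (0.0654 to 0.120), without the SR9009 library of mouse 2 (0.0505) and without the DMSO library of mouse 1 (0.0624). Without the SR9009 library of mouse 1 it was -3.33 (edgeR adjusted p = 0.00519).

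**Figure D2:**
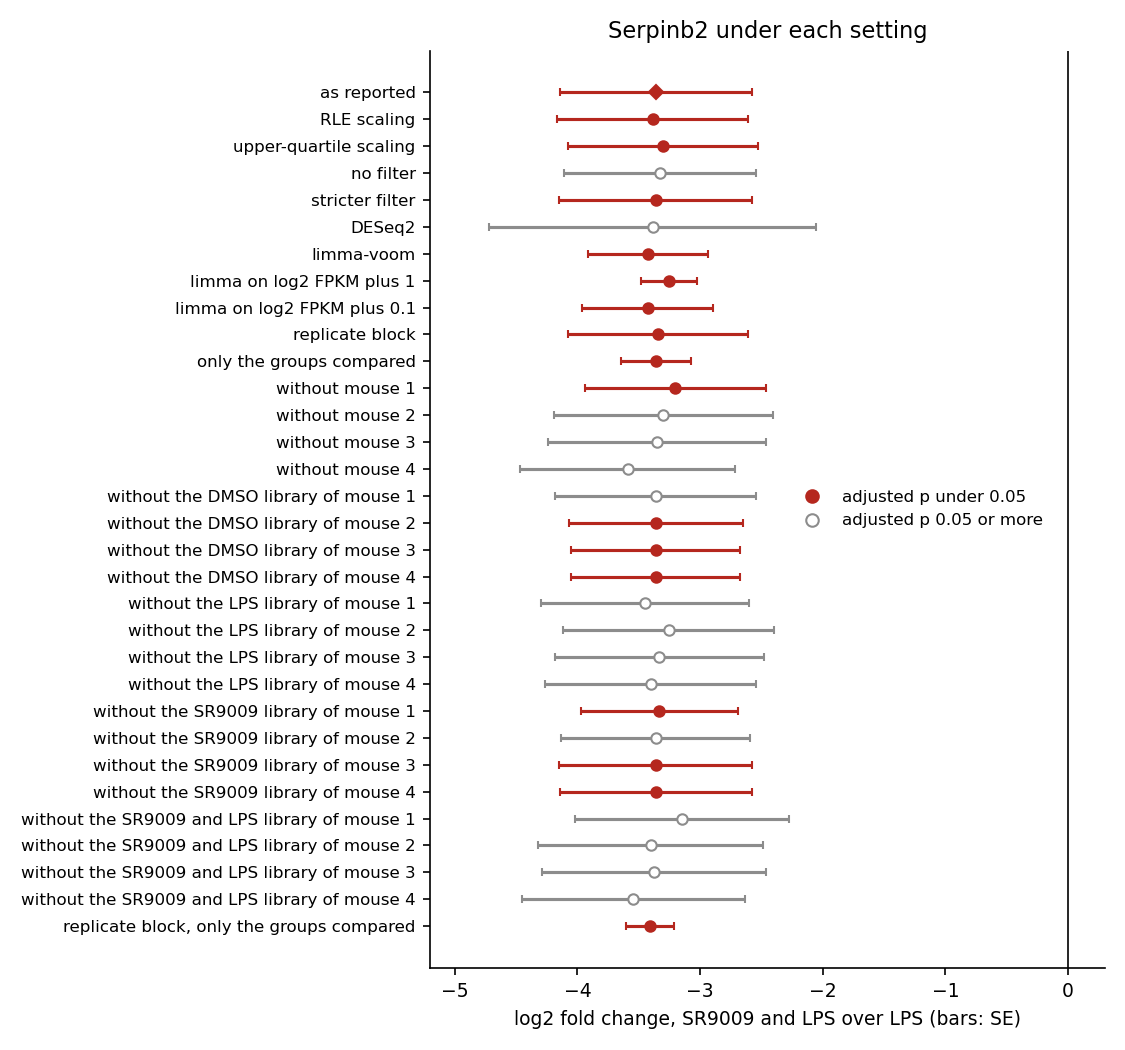
Log2 fold change of Serpinb2 in SR9009 and LPS cells over LPS cells (horizontal axis, bars show the SE) as reported and under each of 31 alternative settings. All values lie between -3.59 and -3.15, filled red points are past the threshold of 0.05 on the adjusted p, and open grey points are not.

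LPS still raised Serpinb2 in cells that had been given SR9009. The ratio of SR9009 and LPS cells to SR9009 cells was at least 41.3 in mouse 1, 69.8 in mouse 2 (over a count of 7), at least 140.1 in mouse 3 and at least 220 in mouse 4, with the same floor of 3 counts. The edgeR log2 fold change was 7.72 (SE 1.12, adjusted p = 7.93e-05), in a comparison that called 14.5% of genes tested higher and 15.8% lower. Against DMSO cells, SR9009 and LPS cells held 11.9 and 12.2 times as much Serpinb2 in mice 1 and 2, and at least 169 and at least 226 times as much in mice 3 and 4. That log2 fold change was 4.94 (SE 0.89, edgeR adjusted p = 0.000585), where 16.6% of genes tested were called higher and 14.2% lower. The first ran from 2.89, on log2(FPKM + 1), to 11.36, without the SR9009 library of mouse 2, and the second from 2.66, on log2(FPKM + 1), to 7.01, with limma-voom. Both were past the threshold under all 30 alternatives each, and both gave the smallest permutation p of 0.0286 (exact). In the exact sign-flip test over mice both gave 0.125, again the smallest possible. These comparisons share libraries with those above and are not independent of them.

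Whether SR9009 changed Serpinb2 by a different factor with LPS than without it could not be settled at these depths. The interaction, which subtracts the SR9009 effect in cells without LPS from that in cells given LPS, was -0.58 on the log2 scale with an SE of 1.92 (edgeR adjusted p = 0.993), in a test that called 0% of genes tested higher and 0.00744% lower. At an unadjusted edgeR p under 0.05 there were 471 genes higher and 488 lower, DESeq2 called 52 higher and 48 lower, and limma-voom called none. Its sign turned to 1.88 without mouse 2 and to 3.07 without the SR9009 library of mouse 2, the only SR9009 library with Serpinb2 counts. On log2(FPKM + 1), a scale that shrinks ratios of low values, limma gave -3.02 (adjusted p = 0.000657). In absolute level, SR9009 and LPS cells differed from LPS cells by -153 CPM on average, and SR9009 cells from DMSO cells by -0.483 CPM.

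Around Serpinb2, LPS moved the activators and their receptor in different directions. The list of plasminogen genes (activators, plasminogen binding, inhibitors, clearance and substrates) had 38 members in the table, of which 24 passed the filter on low counts. The other 14, among them plasminogen itself (Plg), the fibrinogen genes and the plasmin inhibitor Serpinf2, held at most 72 counts over all 16 libraries. Between LPS and DMSO cells, 6 of the 24 were called higher and 6 lower, against 19.4% and 20.4% of all genes, and the median log2 fold change was 0.14 against -0.08 for all genes tested.

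Plau, which encodes urokinase, was at 5.66, 5.18, 7.27 and 10.8 CPM in LPS cells of mice 1 to 4 and at 25.8, 22.8, 30.9 and 44.2 CPM in DMSO cells, with no overlap. Its log2 fold change was -2.09 (SE 0.43, edgeR adjusted p = 0.00109). Plaur, the urokinase receptor that holds the activator at the cell surface, averaged 63.5 ± 30.9 CPM in LPS cells and 11.7 ± 3.43 CPM in DMSO cells (SD, n = 4 each), and its log2 fold change of 2.44 (SE 0.59) passed the edgeR test (adjusted p = 0.00377). Plat, the tissue-type activator, stayed low, at 2.12 ± 0.773 CPM in LPS cells and 0.0454 ± 0.0492 CPM in DMSO cells (SD, n = 4 each), with a log2 fold change of 5.34 (SE 0.82, edgeR adjusted p = 8.94e-05). LPS cells thus held less urokinase RNA and more receptor RNA than DMSO cells, together with more Serpinb2.

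Among plasminogen binding proteins, Anxa2 and S100a10, which form a complex at the cell surface, were called higher in LPS than in DMSO cells by log2 fold changes of 1.14 and 0.56, and the plasminogen receptor Plgrkt was not (0.11, edgeR adjusted p = 0.837). The call for S100a10 held under 14 of 30 alternatives and that for Anxa2 under all 30. The clearance receptors Vldlr and Sorl1 fell by 2.06 and 1.10, and the growth factor precursor Hgf, which urokinase can activate, fell by 2.24, on the log2 scale in LPS relative to DMSO cells. Fn1, the gene of fibronectin, a matrix protein that plasmin cuts, was called higher (log2 fold change 1.89, edgeR adjusted p = 0.0433), and this held under 14 of 30 alternatives. Vldlr and Sorl1 kept their calls under 28 and 19 of 30 alternatives, and Hgf under all 30.

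Between SR9009 and LPS cells and LPS cells, Serpinb2 was the only one of the 24 plasminogen genes past the threshold in the edgeR fit of all libraries, with 0 called higher and 1 lower, against 1.06% and 0.737% of all genes. The same 1 gene had an unadjusted edgeR p under 0.05, limma-voom called 1 lower, and DESeq2 called none. Over all 13438 genes tested, 1047 were higher and 771 lower at that unadjusted level. Alternatives that left out no mouse or library, limma-voom and DESeq2 among them, called 149 to 2637 of all genes here. The median log2 fold change of the list was -0.08, against 0.02 for all genes tested. Plau was at 2.29, 2.65, 5.64 and 8.24 CPM in SR9009 and LPS cells of mice 1 to 4, against 5.66, 5.18, 7.27 and 10.8 CPM in LPS cells. It was lower with both agents in all 4 mice while the groups overlapped, and its log2 fold change was -0.62 (SE 0.42, edgeR adjusted p = 0.584). Plaur was at 7.05, 12.9, 43.2 and 65.1 CPM in SR9009 and LPS cells against 30.1, 47.3, 76.7 and 99.7 CPM in LPS cells, lower in all 4 mice with overlapping groups (log2 fold change -0.99, SE 0.57, edgeR adjusted p = 0.485). Plat averaged 1.83 ± 0.670 CPM in SR9009 and LPS cells and 2.12 ± 0.773 CPM in LPS cells (SD, n = 4 each). With the fit restricted to these groups and mouse number added, 2 plasminogen genes were called higher and 3 lower, Serpinb2 among them. That fit called 2637 genes over the whole table in either direction, so the shares of all genes above do not apply to it.

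**Figure D3:**
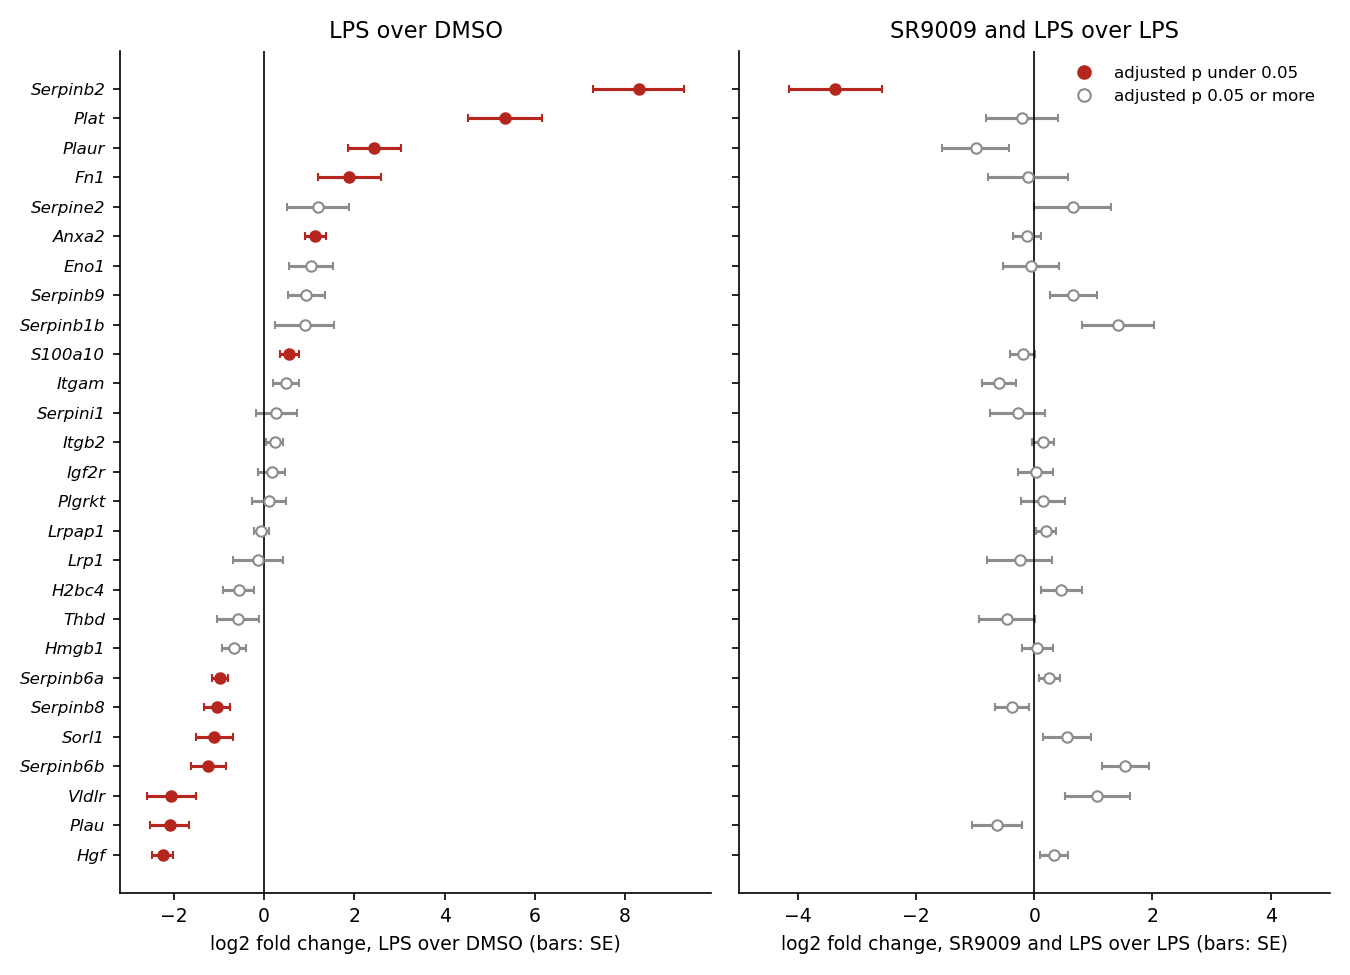
Log2 fold changes (horizontal axis, bars show the SE) of the 24 tested plasminogen genes and the other tested clade B serpins in LPS over DMSO cells (left) and in SR9009 and LPS over LPS cells (right). Filled points passed the adjusted p threshold of 0.05, and on the right Serpinb2, at -3.36, is the only filled point.

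SR9009 without LPS called 0 of the 24 plasminogen genes in either direction, where 0.313% and 0.566% of all genes were called. At an unadjusted edgeR p under 0.05 there was 1 higher, Plgrkt, and 1 lower, Serpinb2, and DESeq2 and limma-voom called none. Of all 13438 genes tested, 1070 were higher and 500 lower at that unadjusted level. Alternatives that left out no mouse or library, DESeq2 and limma-voom among them, called 4 to 327 of all genes. Plgrkt was at 137 CPM in the SR9009 library of mouse 1 and at 34.7 to 41.8 CPM in the other SR9009 libraries, against 28.6 to 41.3 CPM in DMSO cells. The median log2 fold change of the list was 0.17, against 0.01 for all genes. Between SR9009 and LPS cells and SR9009 cells, 4 of the 24 were called higher (Serpinb2, Plat, Anxa2 and Serpine2, a serpin that inhibits thrombin and plasminogen activators) and 4 lower (Plau, Hgf, Serpinb6a and Serpinb8), against 14.5% and 15.8% of all genes. Plau showed the largest decrease of these, with a log2 fold change of -3.24 (SE 0.45, edgeR adjusted p = 5.35e-05) and means of 4.70 ± 2.79 CPM in SR9009 and LPS cells and 44.3 ± 19.2 CPM in SR9009 cells (SD, n = 4 each).

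Set against its urokinase target per gene length, the FPKM ratio of Serpinb2 to Plau was 2.73 to 6.78 in SR9009 and LPS cells, 14.4 to 39.7 in LPS cells, 0 to 0.00672 in SR9009 cells and 0 to 0.0647 in DMSO cells. Serpinb2 RNA therefore exceeded Plau RNA in all 8 libraries given LPS and in none of the other 8. The ranges of the SR9009 and LPS cells and the LPS cells did not overlap. This is a ratio of RNA levels, and no protein or activity was measured.

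Clade B serpins are mostly intracellular inhibitors, and 28 protein-coding members were in the table. Of these, 14 held no count in any library, 8 held some but did not pass the filter, and 6 were tested. Members of the Serpinb1, Serpinb6 and Serpinb9 groups have near-identical copies, so their values are uncertain. In FPKM, Serpinb2 made up 4.92% to 14.6% of the summed clade B level in SR9009 and LPS cells, 49.5% to 62.9% in LPS cells, 0% to 0.116% in SR9009 cells and 0% to 0.675% in DMSO cells. Serpinb2 held at least 49.5% of the clade's level in each LPS library and at most 14.6% in each library with both agents.

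Serpinb6a, an inhibitor of trypsin-like proteases, had the highest counts of the clade over the 16 libraries. It averaged 45.4 ± 8.19 FPKM in SR9009 and LPS cells, 38.5 ± 6.72 FPKM in LPS cells, 85.8 ± 13.7 FPKM in SR9009 cells and 73.1 ± 3.71 FPKM in DMSO cells (SD, n = 4 each). It fell with LPS, by 0.98 on the log2 scale in LPS relative to DMSO cells (SE 0.18, edgeR adjusted p = 0.000354), and was 0.26 in SR9009 and LPS relative to LPS cells (edgeR adjusted p = 0.578). Serpinb8, which also lies near Serpinb2, averaged 6.25 ± 2.81 FPKM in SR9009 and LPS cells, 8.23 ± 2.30 FPKM in LPS cells, 11.9 ± 2.91 FPKM in SR9009 cells and 16.3 ± 1.45 FPKM in DMSO cells (SD, n = 4 each). Its log2 fold change was -1.04 in LPS relative to DMSO cells (SE 0.28, edgeR adjusted p = 0.00817) and -0.38 in SR9009 and LPS relative to LPS cells (SE 0.28, edgeR adjusted p = 0.636).

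Serpinb6b, a close relative of Serpinb6a, was higher with SR9009. It was at 10.7, 4.93, 4.87 and 6.37 CPM in SR9009 cells of mice 1 to 4 and at 1.41, 1.81, 1.90 and 3.42 CPM in DMSO cells, with no overlap. The log2 fold change was 1.64 (SE 0.37, edgeR adjusted p = 0.047), a call that held under 7 of 30 alternatives. With LPS it was at 3.29, 2.89, 1.37 and 3.08 CPM in SR9009 and LPS cells and at 0.915, 0.838, 0.740 and 1.14 CPM in LPS cells, again with no overlap, and the log2 fold change of 1.54 (SE 0.39) did not pass the edgeR test (adjusted p = 0.0599). Of the 6 tested clade members, 1 was called higher and 3 lower between LPS and DMSO cells (Serpinb2 higher, Serpinb6a, Serpinb6b and Serpinb8 lower), against 19.4% and 20.4% of all genes. Between SR9009 and DMSO cells 1 was higher and 0 lower (0.313% and 0.566% of all genes), and between SR9009 and LPS cells and LPS cells 0 were higher and 1, Serpinb2, lower (1.06% and 0.737% of all genes). At an unadjusted edgeR p under 0.05 these were 2 higher and 1 lower in both SR9009 comparisons. Of all 13438 genes tested, 1070 were higher and 500 lower at that level in SR9009 against DMSO cells. In SR9009 and LPS against LPS cells, 1047 were higher and 771 lower. DESeq2 called 2 clade members higher and limma-voom 1 higher in SR9009 against DMSO cells, where DESeq2 called 327 of all genes. In SR9009 and LPS against LPS cells DESeq2 called 1 higher and limma-voom 1 lower. Alternatives that left out no mouse or library include both tools. They called 4 to 327 of all genes in SR9009 against DMSO cells and 149 to 2637 in SR9009 and LPS against LPS cells. The median log2 fold changes of the 6 were -0.04 (LPS against DMSO), 0.51 (SR9009 against DMSO) and 0.46 (SR9009 and LPS against LPS). The medians for all genes were -0.08, 0.01 and 0.02. Set against SR9009 cells, SR9009 and LPS cells had 1 higher, Serpinb2, and 3 lower, Serpinb6a, Serpinb6b and Serpinb8 (14.5% and 15.8% of all genes, median -0.61 against -0.12). Set against DMSO cells they had 3 higher and 2 lower (16.6% and 14.2% of all genes, median 0.95 against -0.05). The 3 were Serpinb2, Serpinb9, an inhibitor of granzyme B (log2 fold change 1.60, SE 0.41, edgeR adjusted p = 0.00767), and Serpinb1b (2.32, SE 0.62, edgeR adjusted p = 0.00949), and the 2 were Serpinb6a and Serpinb8.

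Serpinb2 sits in a cluster of clade B serpins on chromosome 1. Within 1000000 bases of its start (GRCm39) the table had 15 protein-coding genes, 12 of them clade B serpins, of which 6 held no count and 5 passed the filter (Serpinb2, Serpinb8, Vps4b, Kdsr and Bcl2). The next gene, Serpinb10, starts inside the annotated span of Serpinb2 on the same strand, over 6452 shared bases. It held 21 counts over all 16 libraries, at most 7 in any 1, against 10599 for Serpinb2. Serpinb7, the nearest serpin upstream, ends 58733 bases before Serpinb2 and held 5 counts in all libraries, and Serpinb8 starts 54527 bases after it. Between LPS and DMSO cells, Serpinb2 was the only one of the 5 called higher, while Serpinb8 (log2 fold change -1.04) and Kdsr, an enzyme of ceramide synthesis (-3.45, SE 0.25, edgeR adjusted p = 8.32e-08), were called lower, against 19.4% of all genes higher and 20.4% lower. Between SR9009 and LPS cells and LPS cells, Serpinb2 was called lower and none of the other 4 was called, against 1.06% of all genes higher and 0.737% lower. Kdsr stood at 0.82 (edgeR adjusted p = 0.11), Bcl2, which restrains apoptosis, at 0.86 (adjusted p = 0.54) and Vps4b, an ATPase of membrane remodelling, at -0.19 (adjusted p = 0.73), in log2 fold change.

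The genes whose pattern was most like that of Serpinb2 were taken as the 8 with the highest Pearson correlation on log2(CPM + 1) over the 16 libraries, out of 9394 protein-coding genes averaging 5 CPM or more. They were Chmp4b (r = 0.992), which acts in membrane scission, Il1rn (0.991), the interleukin 1 receptor antagonist, Dgat2 (0.989), an enzyme of triglyceride synthesis, Scimp (0.988), an adaptor of Toll-like receptor signalling, Upp1 (0.987), a uridine phosphorylase, Mmp13 (0.986), a collagenase, Pfkfb3 (0.986), an activator of glycolysis, and Gpr31b (0.985), a G protein-coupled receptor. The points share libraries and mice, and most of the spread in each gene is between groups: 490 of the 9394 genes had r above 0.9, and the median was 0.01. On log2(FPKM + 1), 6 of the 8 were again among the top 8, and within the 8 libraries given LPS none was, where they ranked 14th to 125th.

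These 8 genes were chosen on the same libraries, so their levels are a description. The share of the LPS level kept in SR9009 and LPS cells of the same mouse separated them. Serpinb2 kept 6.25% to 14.4% (median 9.10%), Il1rn 9.15% to 14.8% (median 11.7%) and Mmp13 4.91% to 19.4% (median 12.4%). At the other end, Pfkfb3 kept 20.0% to 45.4% (median 35.7%) and Chmp4b 51.5% to 64.5% (median 58.2%). The other 4 had medians of 17.4% (Scimp), 19.6% (Upp1), 27.7% (Gpr31b) and 29.7% (Dgat2). A high correlation over the 16 libraries thus covered genes that differed widely in the share they kept.

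Il1rn came nearest to Serpinb2 in this respect. It was at 167, 341, 278 and 269.5 CPM in SR9009 and LPS cells of mice 1 to 4, against 1318, 2306, 2613 and 2944 CPM in LPS cells, with no overlap. The cytokine genes Tnf and Il6 were included as checks of the LPS response. In mice 1 to 4, Tnf kept 43.0%, 67.8%, 102% and 113% of the LPS level (median 84.7%). Il6 kept 22.9%, 32.4%, 91.7% and 80.5% (median 56.5%). The log2 fold changes of Tnf and Il6 in SR9009 and LPS relative to LPS cells were -0.23 and -0.52. Neither passed the edgeR test (adjusted p = 0.946 and 0.828). The lowest share among the 4 mice was that of mouse 1 in 10 of the 11 genes, Il1rn being the exception.

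**Figure D4:**
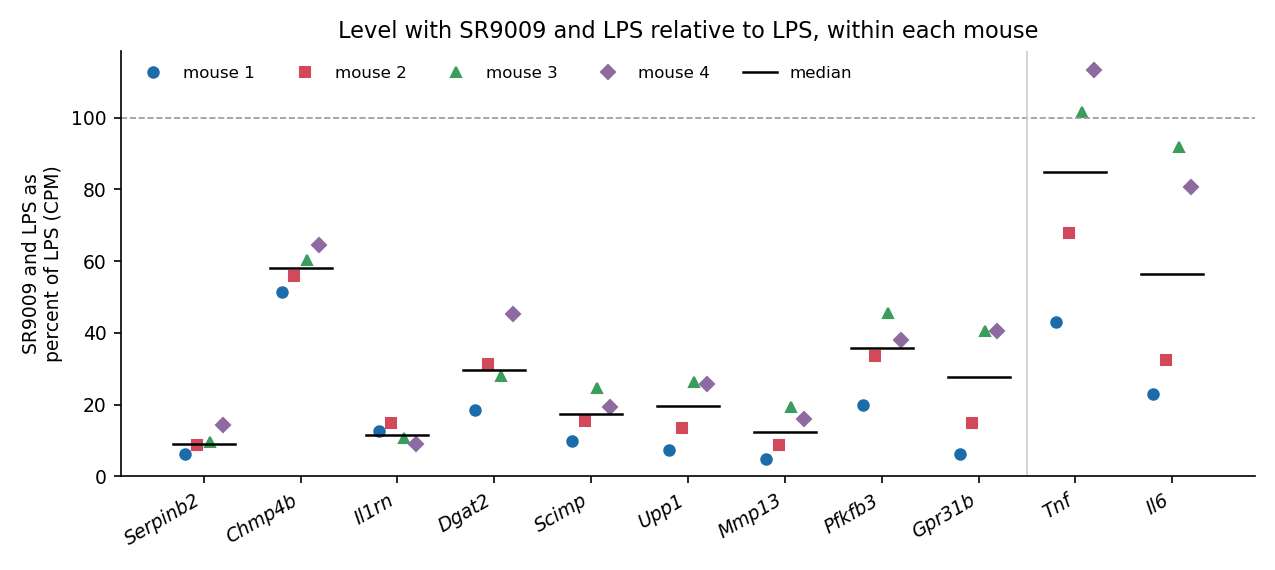
Level in SR9009 and LPS cells as a percent of the LPS level (CPM) in the same mouse, for Serpinb2, the 8 genes most like it and the LPS checks Tnf and Il6, with 1 point per mouse and a bar at the median. The dashed line marks the LPS level, and Serpinb2 lies between 6.25% and 14.4% in all 4 mice.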

How the data were processed

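Poly(A) RNA of 16 libraries (4 groups, 4 mice) was sequenced, per the labels. Reads were aligned with HISAT2 to GRCm39, per the submitters' processing notes. Not given in the sources used here are the version of the aligner, the counter, the strand setting and the annotation. The deposited table holds raw counts per gene, per the file headers. The FPKM values were scaled by the authors: per the values, count over length divided by FPKM was constant within each library.

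Of 56748 genes, 13438 passed filterByExpr (minimum count 10, minimum total 15). All 16 libraries entered 1 robust quasi-likelihood fit in edgeR 4.0.16 (R 4.3.3), scaled by TMM factors of 0.738 to 1.26 and with a mean for each group. Calls were made at a Benjamini-Hochberg adjusted p under 0.05, and an SE was derived as the absolute log2 fold change over the root of its F statistic. CPM used TMM-scaled totals. Alternatives were scaling by RLE or the upper quartile, no filter, a filter of 1 CPM in 4 libraries, DESeq2 1.42.0, limma-voom (limma 3.58.1), limma on log2 FPKM plus 1 or 0.1, mouse number as a replicate block, fits of the compared groups alone, and fits without each mouse or each library. Permutation tests used scipy 1.17.1.

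Libraries of the same number came from the same mouse, per the labels, and their deviations from group means correlated with a median r of 0.30 over 24 pairs (0.0511 to 0.645, 20 over 0.1), against -0.09 over 72 pairs of other mice. Floors of 3 counts cover counting error only.

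The gene, the gene lists and the tests were chosen with earlier results of these data known. Named were Serpinb2, the 8 genes most like it, Plau, Plat, Plaur, Plgrkt, Anxa2, S100a10, other plasminogen or clade B members called in LPS against DMSO, SR9009 against DMSO, or SR9009 and LPS against LPS or SR9009, tested genes of the locus, and Tnf and Il6 (28 genes). Serpinb9, Serpinb1b and untested genes named in passing were added after their values were seen.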

Additional observations from a re-analysis of the deposited data

Results flagged for a closer look

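Of 112 sets of 4 libraries checked, 6 held a library that stood apart from the other 3 of its group by Dixon's criterion, which chance does in about 1 in 20 sets. That rate does not apply to the Serpinb2, Plat and Il6 sets below. With 3 libraries at 0, any count in the remaining library meets the criterion. Serpinb2 was at 0.256 CPM in the SR9009 library of mouse 2 and at 0 in the other SR9009 libraries. In SR9009 cells, Plat was at 0.201 CPM in mouse 3 and Il6 at 0.110 CPM in mouse 2, both at 0 in the other 3 mice. Plgrkt was at 137 CPM in the SR9009 library of mouse 1 and at 34.7 to 41.8 CPM in the other SR9009 libraries. Fn1 was at 1.81 CPM in that same library and at 0.564 to 0.694 CPM in the others. Mmp13 was at 97.9 CPM in the SR9009 and LPS library of mouse 1 and at 287 to 298 CPM in the other 3.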

How the results depend on the processing

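Serpinb2 kept its direction and call under all 30 alternatives for LPS against DMSO, SR9009 and LPS against SR9009 and SR9009 and LPS against DMSO cells, and was never called for SR9009 against DMSO (29 alternatives). With LPS and DMSO the leave-one-out range was 7.83 to 9.59. For SR9009 and LPS against LPS the log2 fold change ran from -3.59 to -3.15 when a mouse or library was left out (7 of 20 past the threshold), and it missed the threshold with no filter (-3.33) and with DESeq2 (-3.39). The replicate block gave -3.34 (adjusted p = 0.0278) and changed no Serpinb2 call. The interaction passed on log2 FPKM plus 1 (-3.02), reversed without mouse 2 (1.88) and without the SR9009 library of mouse 2 (3.07), and ran from -1.86 to 3.07 over left-out mice and libraries. The cause was not tested.

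Clade B serpins called between SR9009 and DMSO cells (1) numbered 0 with RLE or upper-quartile scaling, no filter, FPKM plus 0.1 or the compared groups alone, 2 with DESeq2, and 0 to 1 over left-out mice and libraries. Between SR9009 and LPS and LPS cells (1) they numbered 0 with no filter, 2 with the replicate block, 2 with the compared groups alone, 3 with both, and 0 to 3 over left-out libraries. Between SR9009 and LPS and SR9009 cells (4) they numbered 2 with the compared groups alone and 2 to 6 over left-out libraries. Plasminogen genes called between SR9009 and LPS and LPS cells (1) numbered 0 with no filter, 0 with DESeq2, 5 with the block and the compared groups alone, and 0 to 2 over left-out libraries. Over all genes, the replicate block raised the calls to 198 for SR9009 against DMSO (118 without it), 535 for SR9009 and LPS against LPS (241) and 15 for the interaction (1). Leaving out the SR9009 library of mouse 1 gave 1566 calls for SR9009 and LPS against LPS, and its 31 alternatives ran from 5 (without mouse 4) to 2637 (the block and the compared groups alone). For SR9009 against DMSO the count ran from 1 (without mouse 4) over 242 (without the SR9009 library of mouse 1) to 327 (DESeq2). It ran from 3506 to 7850 for LPS against DMSO, 2113 to 5935 for SR9009 and LPS against SR9009, 2235 to 6734 for SR9009 and LPS against DMSO, and 0 to 100 for the interaction. With upper-quartile scaling the genes tested had a median of -0.28 in log2 fold change for LPS against DMSO cells (-0.08 with TMM), with 38.1% of calls higher against 48.8%, and of -0.25 for SR9009 and LPS against SR9009 cells (-0.12), with 38.0% against 47.8%. The 51 calls of named genes other than Serpinb2 in LPS against DMSO, SR9009 against DMSO and SR9009 and LPS against LPS or SR9009 were followed over 1535 alternative values, in which none reversed and 34 kept their call throughout. Calls of these genes in SR9009 and LPS against DMSO cells were not followed. Of the 8 genes most like Serpinb2, 6 remained on FPKM and 0 within the libraries given LPS. Serpinb2 had no value for SR9009 against DMSO with the compared groups alone, since it did not pass the filter there.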
